A study of Mus musculus with 56 samples.

Results

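The handling of thyroid hormone by the liver was followed through 9 genes whose products take up, deiodinate or carry the hormone: Dio1, Slc16a10, Slc7a8, Slco1a1, Slco1a4, Slco1b2, Slco2b1, Ttr and Crym. Their rows were found by gene symbol, taking the first listed transcript of each, out of 23813 genes in the RNA table. All 9 were among the genes tested.

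The study asked how triiodothyronine (T3), the active thyroid hormone, and the corepressor NCOR1 set histone acetylation and transcription in mouse liver. Of its 56 samples, 12 are liver RNA-seq libraries, and these were compared here. All mice were male and were made hypothyroid over 16 days by feeding PTU (propylthiouracil, an inhibitor of hormone synthesis) in food low in iodine. Genotype and treatment form 3 groups with 4 libraries each. The hypothyroid WT group (WT PTU) received vehicle. The hyperthyroid WT group (WT PTU_T3) was injected with 5 μg T3 on each of the last 4 to 6 days. The third group, hypothyroid L-NCORdeltaID mice (PTU), carries in the liver an NCOR1 that lacks the domains contacting the thyroid hormone receptor (TR), on a mixed C57BL/6;129S background. The study's methods call ages within a background similar, but the mean age listed over all the study's animals is lower for hypothyroid mutants than for either WT group. Ages per RNA library are not given in the sources used here. The study names a WT background only for littermates of another mutant line. It does not say which background the WT mice of these RNA groups had. Age and any difference in background cannot be told apart from genotype in comparisons with the mutant. No L-NCORdeltaID library with T3 was analysed here, so its response to the hormone cannot be given.

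The thyroid releases mainly thyroxine (T4), which circulates bound to plasma proteins made in the liver and crosses the hepatocyte membrane through transporters rather than by free diffusion. Inside the cell, deiodinases remove iodine atoms. Type 1 deiodinase, a selenium-containing enzyme abundant in liver, can form T3 from T4 and also clears iodothyronines, and Dio1 is a widely used read-out of thyroid state in rodent liver. In the classical model T3 acts by binding TR on DNA, which recruits NCOR1 and its associated deacetylase when no hormone is bound. The paper proposes that this model does not fully explain how T3 activates enhancers. It gives a region near Dio1 as an example with low occupancy of NCOR1 and the deacetylase in the hypothyroid state.

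Values are RPKM, reads scaled for transcript length and library size, so that levels of different genes can be compared per length. Depth was read from the steps between low RPKM values and ranged from 21.3 to 42.6 M reads (M, the SI prefix mega). The hyperthyroid libraries were the shallowest (21.3 to 26.1 M reads) and did not overlap with hypothyroid WT (29.1 to 38.2 M reads) or L-NCORdeltaID (37.9 to 42.6 M reads). The member value with the fewest reads behind it, Crym in 1 mutant library, rested on about 36.4 reads. Replicates within a group correlated at 0.967 to 0.986 across genes. Ncor1 itself lay between 12.1 and 13.9 RPKM in the mutant and between 14.1 and 15.6 RPKM in hypothyroid WT (limma adjusted p = 0.204), and a whole-transcript value does not resolve the deleted domains. "Rose" and "fell" below mean an adjusted p under 0.01 in limma on log2(RPKM + 0.1). With T3 the median gene tested stood 0.23 higher on the log2 scale, so changes are also given relative to that median. Of the genes called with T3, 76% were higher, and 52.1% were when libraries were scaled by the median of gene ratios. For hyperthyroid WT against the mutant the shares were 73.1% and 47.3%.

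In liver tissue, fewer cells of a type and less RNA per cell cannot be told apart. The summed level of the hepatocyte markers Alb, Apoa1, Apob, Tat, Cps1 and Hnf4a ranged from 34375 to 44534 RPKM in hypothyroid WT, 18825 to 26816 RPKM in hyperthyroid WT and 28222 to 32818 RPKM in L-NCORdeltaID. Most of this sum is Alb, which fell with T3, while Hnf4a rose and the other 4 did not pass. Under scaling by the median of gene ratios none of the 6 was called. With T3, 4 of 4 measured Kupffer cell and macrophage markers (Adgre1, Clec4f, Marco and Vsig4) rose, and their summed level went from 22.6 to 29.5 RPKM in hypothyroid WT to 68.3 to 114 RPKM. In L-NCORdeltaID the sum ranged from 25 to 63.6 RPKM, the highest value being that of replicate 2. With T3, 2 of 5 stellate, 2 of 5 endothelial and 3 of 5 blood markers also rose. Of 5 cholangiocyte markers 1 rose and 1 fell. Over all genes tested, 24.5% rose and 7.71% fell. After that scaling the Kupffer cell count was the same, while 0 stellate, 1 endothelial and 1 blood marker were higher and 1 cholangiocyte marker was lower. In the mutant no stellate, endothelial, cholangiocyte or blood marker was called. Lyve1 averaged 5.08 RPKM against 1.24 RPKM in hypothyroid WT (limma adjusted p = 0.0422), without overlap. Col1a1 averaged 2.90 against 0.507 RPKM (0.0705) and Cd3e 0.292 against 1.60 RPKM (0.0273), also without overlap. The other markers of these types overlapped between the genotypes. The part of the cell type markers in the results below was not tested.

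T3 split the 9 genes. Dio1, Slc16a10 and Slc7a8 rose, while Slco1b2, Slco2b1 and Ttr fell, and Slco1a4, Slco1a1 and Crym did not pass the threshold. Among all genes tested, 24.5% rose and 7.71% fell. Values of the treated and untreated libraries did not overlap for 8 of the 9 genes, compared with 46.6% of all genes. In L-NCORdeltaID mice 8 of the 9 genes were without a call and Slco1a4 rose, against a background of 0.725% of genes higher and 0.544% lower. These comparisons use the same 4 hypothyroid WT libraries. The hyperthyroid WT and L-NCORdeltaID libraries were therefore also compared with each other.

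**Figure D1:**
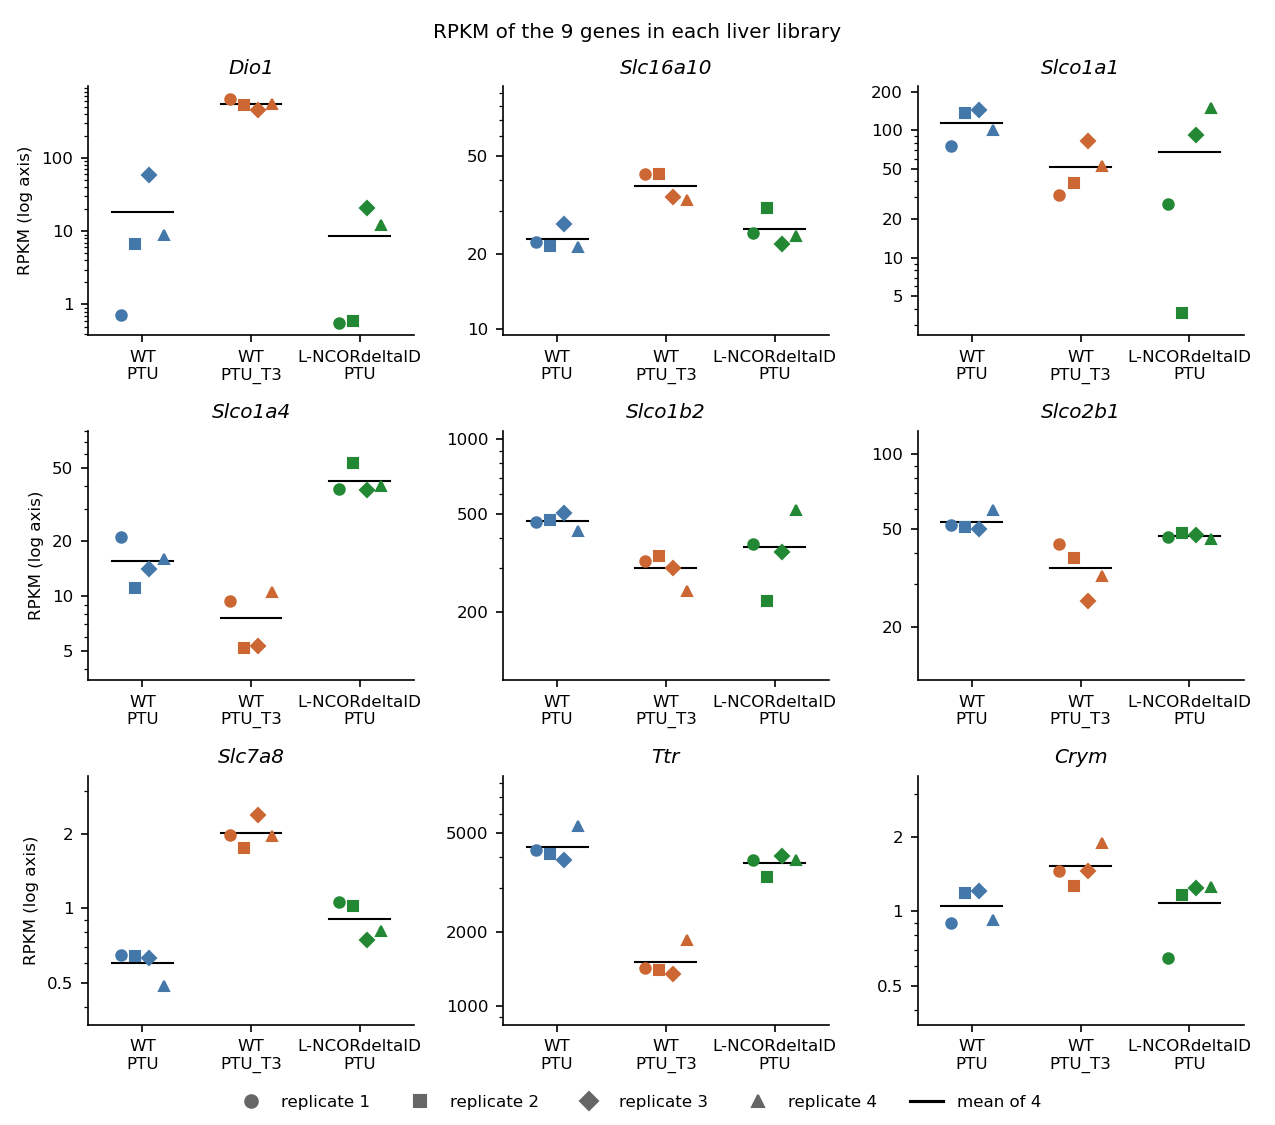
RPKM (log axis, a separate range per panel) of each of the 9 genes in the 12 liver libraries, with 1 symbol per replicate and a line at the mean of 4. Dio1 spans 0.567 to 641 RPKM, and Slco1a4 is the gene whose 4 L-NCORdeltaID values all lie above both WT groups while its hyperthyroid values lie below.

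Per length, Ttr was the highest member in all groups and Slc7a8 or Crym the lowest. In hypothyroid WT the order was Ttr (4411 RPKM on average), Slco1b2 (466), Slco1a1 (114), Slco2b1 (53.2), Slc16a10 (22.9), Dio1 (18.5), Slco1a4 (15.5), Crym (1.05) and Slc7a8 (0.601). Libraries of Slc16a10, Dio1 and Slco1a4 overlapped in this order, whereas the other neighbours were separate. With T3, Dio1 moved from place 6 to place 2, below Ttr. In L-NCORdeltaID mice Slco1a4 moved up to place 5, next to Slco2b1, and their values overlapped.

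Dio1 encodes type 1 deiodinase. Its RPKM in hypothyroid WT replicates 1 to 4 were 0.719, 6.64, 57.7 and 8.98, an 80.2-fold range within 1 group. The 4 hyperthyroid libraries had 641, 533, 459 and 544 RPKM and differed by 1.4-fold at most. All of them lay above the highest hypothyroid library. Dio1 rose by 6.20 on the log2 scale (SE 1.02, n = 4 and 4, limma adjusted p = 0.00118), or 5.97 relative to the median gene. The log2 fold change was 5.15 without hypothyroid replicate 1 and 7.20 without hypothyroid replicate 3, and the call held without any single library.

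In L-NCORdeltaID mice, Dio1 read 0.567, 0.591, 20.9 and 12.1 RPKM. A pair of libraries was thus close to the lowest hypothyroid WT value and the other pair above 10 RPKM, and the groups overlapped. The log2 difference from hypothyroid WT was -1.15 (95% interval -4.52 to 2.21, adjusted p = 0.706). It was -2.21 without hypothyroid WT replicate 1 and -0.16 without hypothyroid WT replicate 3. This interval is wide enough to hold a several-fold change in either direction. Hyperthyroid WT exceeded L-NCORdeltaID by 7.36 on the log2 scale (SE 1.08, adjusted p = 0.00107).

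The fewest reads behind a Dio1 value were about 37.9, in mutant replicate 2. The T3-responsive genes Thrsp, Me1, Gpd2, Klf9 and Bcl3 were set beside Dio1. Hypothyroid WT replicate 3, the library with 57.7 RPKM of Dio1, also had the highest Me1 (34.1 RPKM, malic enzyme), Gpd2 (6.95 RPKM, mitochondrial glycerol phosphate dehydrogenase), Klf9 (34.7 RPKM, a transcription factor) and Bcl3 (8.79 RPKM) of its group, while Thrsp was highest in replicate 2 (490 RPKM). Replicate 1, with the lowest Dio1, had the lowest Me1, Klf9, Bcl3 and Thrsp (15, 17.5, 2.17 and 209 RPKM). Gpd2 was lowest in replicate 4 (2.32 RPKM) and had 2.77 RPKM in replicate 1. In the mutant, replicates 1 and 2 shared the low Dio1 but differed in Me1, with 49.8 and 16.8 RPKM. Thrsp (1060 and 454 RPKM) and Gpd2 (6.4 and 2.32 RPKM) were also higher in replicate 1. Klf9 (22.3 and 24.4 RPKM) and Bcl3 (6.3 and 8.38 RPKM) were higher in replicate 2.

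**Figure D2:**
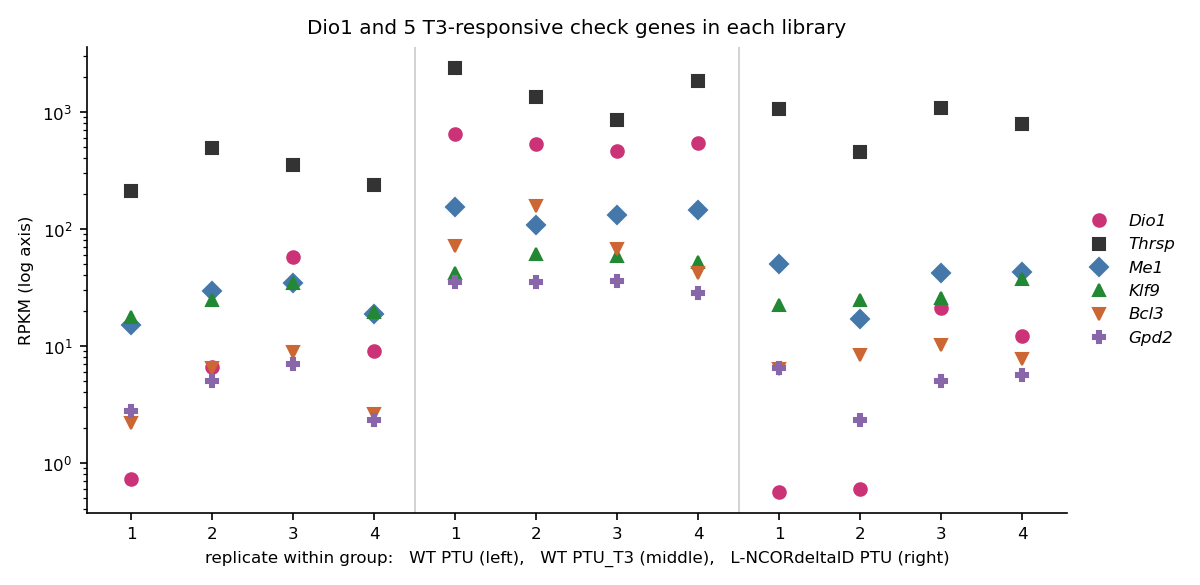
RPKM (log axis) of Dio1 and of the T3-responsive genes Thrsp, Me1, Klf9, Bcl3 and Gpd2 in each library, 1 symbol per gene, with replicates of the 3 groups side by side. Dio1 runs from 0.719 to 57.7 RPKM in hypothyroid WT and from 0.567 to 20.9 RPKM in L-NCORdeltaID, a wider range than that of the other genes shown.

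Dio1 lies on mm9 chromosome 4 from position 106964070 to 106979774 on the minus strand (GENCODE M1). Its start site sits in a merged H3 acetylated region of 16483 bp, longer than 97.9% of the 37200 regions deposited. The list holds positions only, so acetylation is not compared between groups here. Values per region that the study reports were not used. TR binds direct repeats of AGGTCA, and both strands of the region were searched for AGGTCA followed by 4 bases of any kind and a second AGGTCA. The region held no match of at least 11 of the 12 half-site letters and 3 matches of 10. They are printed because they are the nearest to this element in the Dio1 region, 5′ to 3′ on mm9 with both half-sites in capitals.
Dio1 chr4:106970824-106970839, plus strand: AGCACAcagcAGGTCA
Dio1 chr4:106976046-106976061, plus strand: AGGTCAcactAGATTA
Dio1 chr4:106979383-106979398, minus strand: ATTTCAttcaAGGTCA
The last lies 383 bp from the start site. Of 406 regions within 10% of this length, 86.5% held a match of 10 or more, with a median of 2 per region. A match describes letters only.

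The Dio1 promoter, from 250 bases before to 50 after the RefSeq start, is printed as the sequence next to the largest change among the 9 genes (GRCm38.p6, chr4:107307119-107307418, minus strand).
Dio1: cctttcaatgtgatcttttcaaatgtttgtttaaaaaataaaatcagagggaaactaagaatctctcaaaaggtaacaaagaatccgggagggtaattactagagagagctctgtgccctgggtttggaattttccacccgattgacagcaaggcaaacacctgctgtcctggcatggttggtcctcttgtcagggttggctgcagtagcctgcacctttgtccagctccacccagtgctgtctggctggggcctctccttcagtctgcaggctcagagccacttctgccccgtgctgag
It holds neither AGGTCA nor its reverse complement TGACCT, which 16.3% of 32851 mouse promoters of this length hold. The same letters occur once on mm9 chromosome 4, from 106979724 to 106980023, wholly inside the acetylated region.

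The other deiodination genes gave few values. Dio3, whose product inactivates T4 and T3, was at 0.649, 0.103, 0.257 and 0.475 RPKM in hypothyroid WT and is listed at 0 in all 4 hyperthyroid libraries. The limma adjusted p was 0.00186, but Dio3 entered the test only through the hypothyroid libraries, so the call is not support for a change, and no fold is given against 0. In L-NCORdeltaID mice Dio3 had 0.276, 0.295, 0.163 and 0.124 RPKM, within the range of hypothyroid WT. Dio1 thus stood in a ratio of 1.11 to 224 to Dio3 across hypothyroid WT libraries. Dio2 did not reach 0.1 RPKM in any library, and Iyd, the iodotyrosine deiodinase, was at 64.7 RPKM in hypothyroid WT and 51.6 RPKM after T3 (adjusted p = 0.0626).

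Because Dio1 is a selenoprotein, the genes of selenocysteine synthesis and insertion were examined. With T3, 2 of 7 rose, 1 fell and 4 did not pass, where 24.5% of all genes rose and 7.71% fell. The median log2 fold change was -0.12, compared with 0.23 over all genes. Sepsecs, which completes selenocysteine on its tRNA, rose from 11.9 to 36.3 RPKM (log2 1.61, SE 0.14, adjusted p = 4.905e-05). Sephs2, which makes the selenium donor, fell from 527 to 306 RPKM (log2 -0.78, adjusted p = 0.000244), and Scly, which recycles selenium, rose from 35.9 to 46.1 RPKM. Scly was not called (adjusted p = 0.209) and Eefsec, the selenocysteine elongation factor, fell when libraries were scaled by the median of gene ratios. None of the 7 was called in L-NCORdeltaID mice.

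The amino acid type transporters rose with T3. Slc16a10 (MCT10) is a monocarboxylate carrier family member that moves aromatic amino acids and iodothyronines. It had 22.5, 21.5, 26.5 and 21.3 RPKM in hypothyroid WT and 42.3, 42.3, 34.0 and 33.2 RPKM after T3, with no overlap. The log2 fold change was 0.72 (SE 0.11, adjusted p = 0.0008), or 0.49 relative to the median gene. Its second listed transcript moved alike, from 10.5 to 17.7 RPKM on average.

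Slc16a10 in L-NCORdeltaID mice read 24.4, 30.8, 22.0 and 23.6 RPKM, overlapping with hypothyroid WT (log2 0.13, 95% interval -0.13 to 0.39, adjusted p = 0.576). Hyperthyroid WT was above the mutant by 0.59 (adjusted p = 0.0072). That call was lost under scaling by the median of gene ratios (0.41, adjusted p = 0.0567) and without hyperthyroid replicate 1, 2 or 3 or mutant replicate 1, 3 or 4, where the adjusted p was 0.0126 to 0.0239.

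Slc7a8 (LAT2) is a light chain of a heteromeric amino acid exchanger that also carries T3 and needs the heavy chain Slc3a2. It was low, with 0.650, 0.639, 0.629 and 0.486 RPKM in hypothyroid WT. T3 brought it to 1.98, 1.76, 2.40 and 1.97 RPKM. All treated values exceeded all untreated values, with a log2 fold change of 1.60 (SE 0.14, adjusted p = 4.597e-05) or 1.37 relative to the median gene. The L-NCORdeltaID libraries had 1.06, 1.02, 0.743 and 0.812 RPKM. They lay between the WT groups without overlap, but the difference from hypothyroid WT did not pass (log2 0.52, 95% interval 0.16 to 0.88, adjusted p = 0.108). Hyperthyroid WT stood 1.08 above the mutant (adjusted p = 0.00106).

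The partner and the sister chain of this exchanger changed with T3 as well. Slc7a5 (LAT1) had 0.810, 0.669, 1.15 and 0.782 RPKM in hypothyroid WT and 3.40, 3.45, 6.36 and 5.13 RPKM in hyperthyroid WT (log2 2.27, SE 0.23, adjusted p = 9.004e-05). Slc3a2 rose from 11.8 to 27.1 RPKM on average (log2 1.16, adjusted p = 0.00108). In L-NCORdeltaID mice Slc7a5 averaged 0.615 RPKM (adjusted p = 0.300) and Slc3a2 12.01 RPKM (adjusted p = 0.956).

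Organic anion transporters of the OATP family make up the other uptake genes. Slco1b2 is the main OATP of the mouse hepatocyte membrane, and Slco1a1, Slco1a4 and Slco2b1 also transport iodothyronines or their sulfates. Slco1b2, Slco1a4 and Slco1a1 lie along mm9 chromosome 6, the first from 141578039 to 141635167, the second from 141753961 to 141804720 and the third from 141855803 to 141895483.

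Slco1b2 had 464, 469, 503 and 426 RPKM in hypothyroid WT and 320, 337, 302 and 243 RPKM after T3. It fell by 0.64 on the log2 scale (SE 0.11, adjusted p = 0.00179), -0.87 relative to the median gene, without overlap. With all 12 libraries in 1 fit the adjusted p was 0.0214. L-NCORdeltaID libraries spread from 222 to 516 RPKM, with 376, 222, 351 and 516 RPKM in replicates 1 to 4, and the difference from hypothyroid WT was -0.41 (95% interval -0.90 to 0.09, adjusted p = 0.332).

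Slco2b1 read 52.0, 51.0, 50.1 and 59.4 RPKM in hypothyroid WT and 43.5, 38.2, 25.6 and 32.1 RPKM in hyperthyroid WT. The log2 fold change was -0.63 (SE 0.15, adjusted p = 0.00737). This call was lost without hypothyroid replicate 1, 2, 3 or 4 or hyperthyroid replicate 4 (adjusted p 0.0143 to 0.0239). The mutant values were the tightest of any group, at 46.2, 48.0, 47.0 and 45.5 RPKM. They lay below all hypothyroid WT values, by 0.18 (95% interval -0.34 to -0.03, adjusted p = 0.182), and above all hyperthyroid values (adjusted p = 0.0389).

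Slco1a4 was the one member called between the genotypes. Hypothyroid WT libraries had 21.1, 11.1, 14.0 and 15.9 RPKM, and L-NCORdeltaID libraries had 38.7, 53.5, 38.3 and 40.0 RPKM. Every mutant value exceeded every WT value. Slco1a4 rose by 1.48 on the log2 scale (SE 0.19, 95% interval 1.05 to 1.90, adjusted p = 0.00379), a 2.78-fold difference. The call was lost without WT replicate 3 or 4 or mutant replicate 1 or 3 (adjusted p 0.0118 to 0.0159), with log2 differences of 1.33 to 1.63 over all single omissions.

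T3 left Slco1a4 at 9.36, 5.21, 5.34 and 10.5 RPKM. These lay below all hypothyroid WT values, with a log2 difference of -1.05 (SE 0.27) and an adjusted p of 0.01005, just outside the threshold. It passed under scaling by the median of gene ratios (-1.26, adjusted p = 0.00681), in 1 fit of all libraries (0.00408) and among genes with a mean of at least 1 RPKM (0.0088). Against the mutant, hyperthyroid WT was lower by 2.53 on the log2 scale (SE 0.24, adjusted p = 0.000113), or 5.77-fold. The mutant values thus lay above, and the hyperthyroid values below, all 4 hypothyroid WT values.

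Slco1a1, which lies beside Slco1a4 in the order above, gave other values. It had 74.7, 136, 144 and 100 RPKM in hypothyroid WT and 30.9, 38.7, 82.7 and 52.3 RPKM after T3, where replicate 3 overlapped with the untreated range. The log2 difference was -1.21 (SE 0.31, adjusted p = 0.0106), just outside the threshold. It passed without hyperthyroid replicate 3 (-1.47, adjusted p = 0.00286), without hypothyroid replicate 1 (adjusted p = 0.00825), under scaling by the median of gene ratios (0.00423) and among genes with a mean of at least 1 RPKM (0.00943), but not in 1 fit of all libraries.

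The L-NCORdeltaID libraries had 26.4, 3.71, 92.4 and 148 RPKM of Slco1a1, a 39.9-fold range that spanned the lowest and the highest value of the 12. The difference from hypothyroid WT did not pass (log2 -1.68, 95% interval -3.89 to 0.53, adjusted p = 0.370), and single omissions moved it from -2.39 without mutant replicate 4 to -0.63 without mutant replicate 2. Replicate 2, with the lowest Slco1a1, had the lowest Slco1b2 (222 RPKM) and the highest Slco1a4 (53.5 RPKM) of its group. Slco1a1 exceeded Slco1a4 by 3.55 to 12.3 times in hypothyroid WT and by 3.31 to 15.5 times in hyperthyroid WT. In the mutant the ratio was 0.683, 0.0695, 2.41 and 3.7, so that Slco1a4 was the higher of the pair in replicates 1 and 2.

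Both genes are known for sex-dependent expression in mouse liver, Slco1a1 being higher in males and Slco1a4 in females. Of 10 male-biased liver genes, 7 fell, 2 rose and 1 did not pass after T3, with a median log2 fold change of -2.21. In L-NCORdeltaID mice 0 of 10 were called and the median was -0.76. Over all genes tested, 24.5% rose and 7.71% fell with T3, and 0.725% were higher and 0.544% lower in the mutant. Hsd3b5, the male-biased steroid dehydrogenase, followed Slco1a1 library by library, with 9.87, 1.29, 68.0 and 107 RPKM in the mutant. Of 9 female-biased genes tested, 5 rose and 1 fell after T3, Sult2a1 being under 0.1 RPKM in all 4 hypothyroid WT libraries. In the mutant only Cyp3a16 of 8 tested was called, at 0.642 RPKM against 0.148 RPKM (adjusted p = 0.00374). The female-biased genes did not share 1 highest mutant library, since Cux2 (2.32 RPKM) and Cyp2a4 (162 RPKM) were highest in replicate 2, Cyp2b9 (30.1 RPKM) in replicate 1 and Sult3a1 (0.387 RPKM) in replicate 3. The part of sex-dependent expression in the Slco1a1 and Slco1a4 values was not tested.

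**Figure D3:**
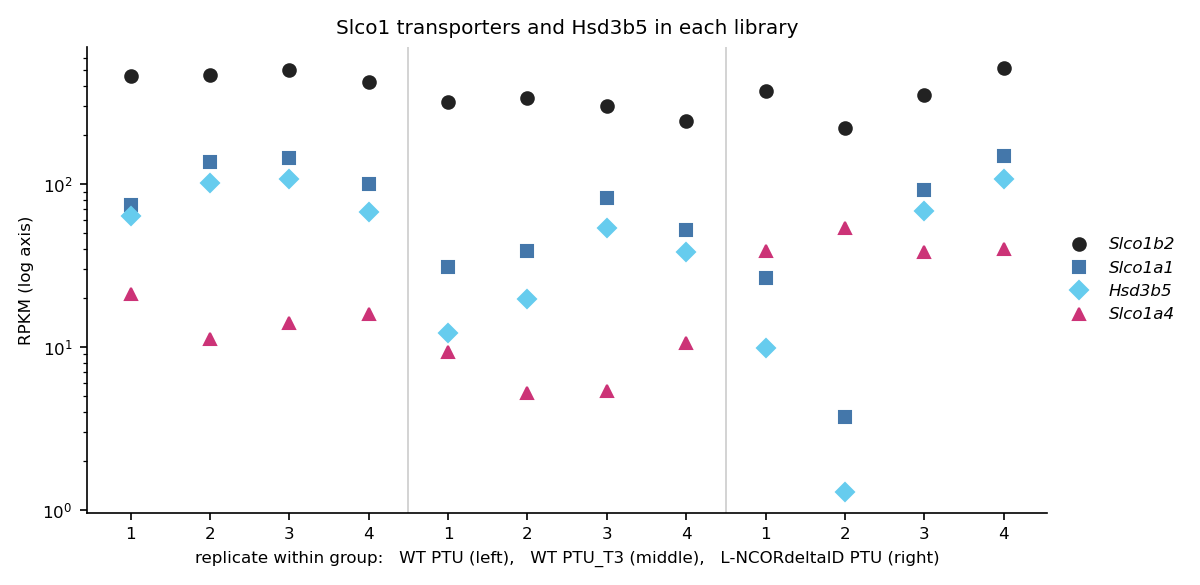
RPKM (log axis) of Slco1b2, Slco1a1, Slco1a4 and the male-biased gene Hsd3b5 in each library, 1 symbol per gene, with the replicates of the 3 groups side by side. Slco1a1 and Hsd3b5 go down together in L-NCORdeltaID replicates 1 and 2 (26.4 and 3.71 RPKM of Slco1a1), where Slco1a4 lies above Slco1a1.

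The promoters of this pair are printed because the neighbours differed in the mutant (RefSeq, GRCm38.p6, minus strand, chr6:141946913-141947212 for Slco1a1 and chr6:141856171-141856470 for Slco1a4). Capitals mark AGGTCA or TGACCT.
Slco1a1: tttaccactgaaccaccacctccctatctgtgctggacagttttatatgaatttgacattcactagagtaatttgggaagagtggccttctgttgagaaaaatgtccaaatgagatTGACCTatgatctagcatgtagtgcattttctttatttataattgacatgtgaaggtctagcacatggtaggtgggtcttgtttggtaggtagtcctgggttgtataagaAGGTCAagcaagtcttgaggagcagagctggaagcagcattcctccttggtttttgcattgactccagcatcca
Slco1a4: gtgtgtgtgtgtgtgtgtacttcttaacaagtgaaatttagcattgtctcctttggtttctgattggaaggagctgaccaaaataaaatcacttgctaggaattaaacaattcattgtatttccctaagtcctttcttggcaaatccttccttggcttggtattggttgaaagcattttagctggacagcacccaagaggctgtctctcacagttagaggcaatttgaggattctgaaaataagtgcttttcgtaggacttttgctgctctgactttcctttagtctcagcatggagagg
Slco1a1 holds 2 half-sites, which begin at -134 and -24 from the start, and Slco1a4 holds none. At least 1 such hexamer occurs in 16.3% of promoters, and 2 or more in 1.81%. Among the 7 members with a promoter in the table, Slco1b2 holds 1 and the other 5 hold none. No member promoter held a 4-spaced repeat with 10 of 12 letters, which 3.02% of all promoters do.

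The other membrane transporters and partner chains on the list did not share a direction. Of 11 listed, 7 were tested with T3, and 4 rose, 1 fell and 2 did not pass (median log2 0.65). Over all genes, 24.5% rose and 7.71% fell. Slco2a1, a prostaglandin transporter of the OATP family, fell from 16.9, 15.9, 13.8 and 18.6 RPKM to 2.87, 2.57, 3.65 and 4.96 RPKM (log2 -2.22, SE 0.19, adjusted p = 3.939e-05). Slco3a1 rose from 0.648 to 1.08 RPKM (adjusted p = 0.00593), a call lost under scaling by the median of gene ratios, and the fourth called was Slco4a1, at 0.303 RPKM after T3. Slco4a1 entered the test only through the hyperthyroid libraries, so its call is not support for a change. In L-NCORdeltaID mice 0 of 6 tested transporters were called (limma), and 1 of them, Slc17a4, had an unadjusted p under 0.05 (0.00843, log2 -0.45, adjusted p = 0.101).

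Carriage was represented by Ttr and Crym. Ttr encodes transthyretin, a plasma carrier of T4 and of retinol-binding protein. It had 4269, 4126, 3900 and 5350 RPKM in hypothyroid WT and 1423, 1402, 1341 and 1843 RPKM in hyperthyroid WT. The groups were far apart, with a log2 fold change of -1.55 (SE 0.16, adjusted p = 0.000108), a 2.94-fold fall, or -1.79 relative to the median gene. Replicate 4 was the highest in both WT groups. L-NCORdeltaID libraries had 3887, 3320, 4040 and 3893 RPKM and overlapped with hypothyroid WT (log2 -0.21, 95% interval -0.59 to 0.17, adjusted p = 0.513). Hyperthyroid WT was 1.34 below the mutant (adjusted p = 0.000935).

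The other plasma carriers moved unequally. Serpina7, thyroxine-binding globulin, had 54.3, 15.1, 14.5 and 33.8 RPKM in hypothyroid WT and 0.084, 0.270, 0.318 and 0.666 RPKM after T3. It fell by 6.04 on the log2 scale (SE 0.51, adjusted p = 3.648e-05), and in the mutant it had 35.5, 17.8, 11.2 and 10.2 RPKM, which overlapped with hypothyroid WT (adjusted p = 0.532). Alb, albumin, fell from 31804 to 14325 RPKM (log2 -1.16, SE 0.28, adjusted p = 0.00818), a call lost under scaling by the median of gene ratios. Within a library Ttr amounted to 13.2 to 14.4% of Alb in hypothyroid WT, 9.52 to 11.6% in hyperthyroid WT and 13.9 to 19.1% in the mutant. Rbp4, Apoa1 and Apob were not called in any comparison. In total 2 of 5 carriers fell and none rose with T3, beside 7.71% of all genes lower and 24.5% higher.

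Crym encodes mu-crystallin, a cytosolic protein that binds T3. It was low, with 0.895, 1.19, 1.21 and 0.920 RPKM in hypothyroid WT and 1.46, 1.27, 1.46 and 1.90 RPKM after T3. The values did not overlap, but the log2 difference of 0.49 (SE 0.16) did not pass (adjusted p = 0.0286), and relative to the median gene it was 0.26. In L-NCORdeltaID mice Crym had 0.648, 1.16, 1.24 and 1.26 RPKM (log2 0.00, 95% interval -0.48 to 0.48).

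**Figure D4:**
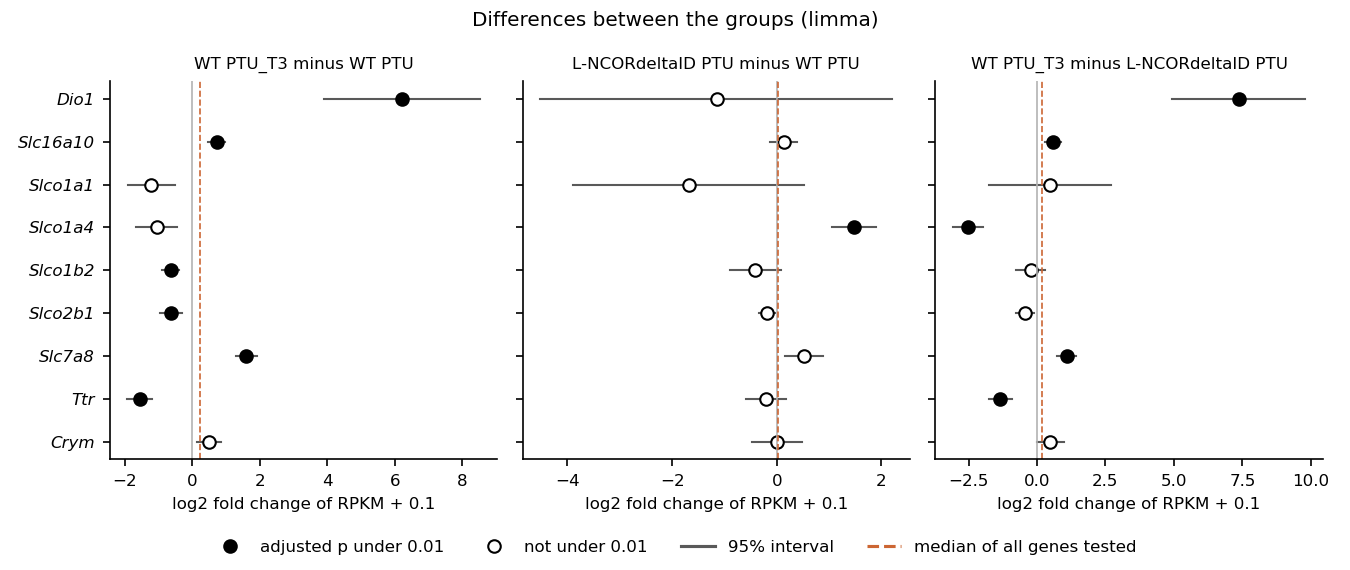
Log2 fold change of RPKM + 0.1 for the 9 genes in the 3 comparisons, with 95% intervals, filled where the adjusted p is under 0.01, and a dashed line at the median of all genes tested (the panels have separate axes). Dio1 reaches 6.20 with T3, and in the middle panel the filled point is Slco1a4 at 1.48.

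Set directly against each other, hyperthyroid WT and hypothyroid L-NCORdeltaID differed in 5 of the 9 genes. Dio1, Slc16a10 and Slc7a8 were higher and Slco1a4 and Ttr lower in hyperthyroid WT, beside 15.5% of all genes higher and 5.7% lower. Values did not overlap for 7 members, compared with 38.3% of all genes. For the mutant against hypothyroid WT, 3 members did not overlap (Slco1a4, Slc7a8 and Slco2b1), compared with 13.1% of all genes. The median log2 difference of the 9 was -0.18 in that comparison and 0.03 over all genes.

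Hormone is also cleared by sulfation and glucuronidation. Of 8 conjugation genes in the table, 2 rose, 1 fell and 5 did not pass with T3. The shares of all genes tested that rose and fell were 24.5% and 7.71%. The sulfotransferase Sult1d1 had 80.1, 67.0, 79.0 and 73.9 RPKM in hypothyroid WT, 196, 141, 127 and 163 RPKM in hyperthyroid WT and 123, 133, 101 and 119 RPKM in L-NCORdeltaID mice. Both groups lay above hypothyroid WT, by 1.05 (SE 0.13, adjusted p = 0.000277) and 0.66 (SE 0.10, adjusted p = 0.00796). Sult1d1 was the conjugation gene called in the mutant, and its difference between hyperthyroid WT and the mutant did not pass (0.38, adjusted p = 0.0658). Sult1b1, a sulfotransferase that accepts iodothyronines, fell with T3 from 14.4 to 4.98 RPKM (log2 -1.56, adjusted p = 0.000348). Sult1a1 rose from 177 to 292 RPKM (adjusted p = 0.0092), a call lost under scaling by the median of gene ratios. Ugt1a1, Ugt1a6a, Ugt1a6b and Ugt1a9 share exons, and their values cannot be taken as separate measurements.

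**Figure D5:**
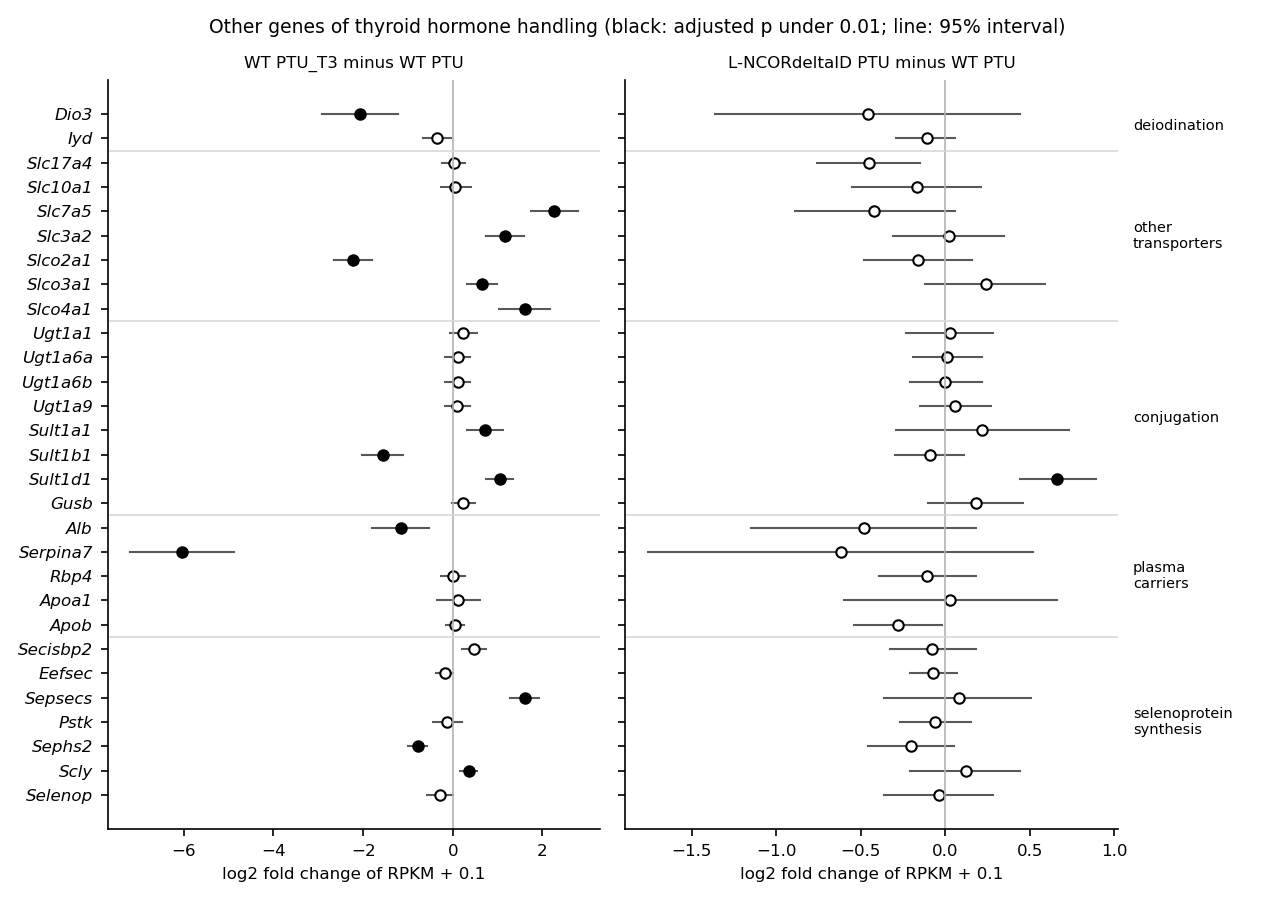
Log2 fold change of RPKM + 0.1 with T3 (left) and in L-NCORdeltaID (right) against hypothyroid WT for the tested genes of deiodination, transport, conjugation, plasma carriage and selenoprotein synthesis, with 95% intervals and separate axes. Slco4a1 was not tested in L-NCORdeltaID. Filled points passed an adjusted p of 0.01, and in the right panel the filled point is Sult1d1 at 0.66, while on the left Serpina7 is lowest at -6.04.

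The acetylated regions at the members are described here by position and are not compared between groups. The study itself reports acetylation per region, and those values were not used. The start site lay inside a region for 8 of 9 members, and for 85.2% of 12489 tested genes with a single position. The exception was the GENCODE start of Slco2b1, whose nearest region lay 3522 bp away, on chromosome 7 from 106855020 to 106856328. One of the 3 RefSeq promoters of Slco2b1 matched mm9 inside that region, from 106855303 to 106855602. Counts of regions within 100 kb of a start site summed to 72 over the 9 genes, with regions shared by the neighbouring Slco1 genes counted for each, and ran from 4 at Slco1b2 to 14 at Slco1a1, where the median tested gene had 7.

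At Slc16a10 (chromosome 10, 39753341 to 39862062, minus strand) the start-site region was 31124 bp long and held 13 repeats with 10 of 12 letters, compared with a median of 4 in 80 regions of like length. Of these, 7 overlap one another in a run of AGCTC units from 39833440 to 39833485. None of the 8 start-site regions held a match of 11 of 12. A second region of the gene, from 39770970 to 39803347, held 2 such matches, printed as the closest to the TR element within 100 kb of Slc16a10.
Slc16a10 chr10:39778537-39778552, plus strand: AGGTCAgcacAGCTCA
Slc16a10 chr10:39782412-39782427, minus strand: AGGTCAgaagAGGGCA
They lie 83517 and 79642 bp from the start site. Matches of 11 or more were found in 4.48% of all regions, and in 30% of the 80 regions close in length to the Slc16a10 start-site region. Binding of TR to these letters was not analysed here.

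The genes with the profile most like each member were ranked by Pearson's r of log2(RPKM + 0.1) over the 12 libraries, among genes with a mean of at least 1 RPKM. Since T3 and hypothyroid libraries form separate clusters, r over the 8 hypothyroid libraries is given as well for the Dio1, Slco2b1 and Ttr lists and for Hsd3b5. These are descriptions, and the points share depth and group. For Dio1 they were 9030619P08Rik (0.989, and 0.958 in hypothyroid libraries), Mup16 (0.975 and 0.923), Hsd17b2 (0.975 and 0.911), Sult5a1 (0.974 and 0.903) and Slc22a7 (0.971 and 0.888). Mup16 belongs to a family of near-identical genes, so its reads may be shared. Of the 5, 9030619P08Rik had 3.63, 174 and 4.35 RPKM in hypothyroid WT, hyperthyroid WT and mutant, and Slc22a7, an organic anion transporter, had 12.2, 238 and 2.58 RPKM.

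For Slco1a1 the closest was Hsd3b5 (0.991, and 0.994 in hypothyroid libraries), followed by Slc22a30 (0.963) and Polr3k (0.925). Slco1a4 was closest to Dntt (0.966), Man2b1 (0.958) and Cisd1 (0.957), of which Cisd1, a mitochondrial iron-sulfur protein, had 96.1, 70.8 and 120 RPKM in the 3 groups. Slco1b2 was nearest to Ugt3a1 (0.931), Ces2g (0.917) and Plpp3 (0.911). For Slco2b1, Maob (0.961), Dcxr (0.956) and Bche (0.949) ranked first, and within hypothyroid libraries r was 0.929 for Maob, 0.608 for Dcxr and 0.65 for Bche.

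Slc16a10 was closest to Bcor, Ikbkb and Pcsk5 (0.959 to 0.96), and Slc7a8 to Mcur1 (0.988), Ube2g2 (0.986) and Slc35e1 (0.984). The Ttr list was Hyi (0.985), Hsd17b6 (0.984) and Cyp2c23 (0.982), with 0.871, 0.787 and 0.769 within hypothyroid libraries. These went lower with T3 than Ttr did, Hsd17b6 from 181 to 2.02 RPKM and Cyp2c23 from 315 to 4.56 RPKM. For Crym they were Trim26 (0.925), Lypla2 (0.919) and Rilp (0.913).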

How the data were processed

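STAR was used by the authors for alignment (mm9), HOMER for quantification over RefSeq transcripts. The authors deposited RPKM, with no read counts, for 31370 transcripts. The authors' own tests (DESeq2) were not used. The 1 row without a gene name (at most 0.00079% of summed RPKM) was left out, and the first row stood for each of 23813 genes. A gene entered a test if 4 or more of its libraries reached 0.1 RPKM, which left 13941, 13790 and 14017 genes in the 3 comparisons. Tests used limma 3.58.1 in R 4.3.3. The scale was log2(RPKM + 0.1), the prior variance followed the mean, and p-values were adjusted by Benjamini-Hochberg over every gene tested. Only the groups compared entered a fit. Fold changes on this scale understate those of low genes. Libraries are separate samples per the labels, and p-values measure only the spread between them. The procedure was tested on simulated data. Depth is the value at which low RPKM of single-transcript genes become whole reads (within 0.1 read for 70.2 to 78.6% of values).

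The deposited acetylated regions are positions on mm9, and the genome used was of the same build (NCBIM37). Promoters are from RefSeq (GRCm38.p6), found for 7 of 9 members. Members and gene lists were chosen with earlier results of these data known. Named genes are the members, list genes past the threshold (up to 4 per list, by mean RPKM), the 5 genes most like Dio1 and 3 most like each other member, and the checks Ncor1, Thrsp, Me1, Gpd2, Klf9 and Bcl3. List genes named without a call, and Cux2, Cyp2a4 and Sult2a1, were picked after their values were seen. One gene of the transporter list is not reported here, and the list's counts leave it out. The table has 0 unused columns of per-sample values. Python 3.11.15, numpy 2.4.6, pandas 2.3.3 and matplotlib 3.10.9 were used.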

Additional observations from a re-analysis of the deposited data

Results flagged for a closer look

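In 5 of 27 sets of 4 libraries (9 genes in 3 groups), 1 library stood apart from the others by Dixon's ratio of unlogged RPKM. Chance flags about 1 in 20 sets if values are normally distributed, which RPKM need not be. The ratio was not taken on the log2 scale of the tests. Dio1 in hypothyroid WT replicate 3 was highest at 57.7 RPKM (ratio 0.855). Slco1a4 in L-NCORdeltaID replicate 2 was highest at 53.5 RPKM (0.888). Slc7a8 in hypothyroid WT replicate 4 was lowest at 0.486 RPKM (0.872). Ttr in hyperthyroid WT replicate 4 was highest at 1843 RPKM (0.836). Crym in L-NCORdeltaID replicate 1 was lowest at 0.648 RPKM (0.831).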

How the results depend on the processing

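Calls of members that changed are given beside each gene, apart from the following. Without a filter on low values or without a variance trend, Slco2b1 with T3 (adjusted p = 0.0116 and 0.0132) and Slc16a10 in hyperthyroid WT against mutant (0.0107 and 0.0135) were not called, and Slco1a4 with T3 passed without hypothyroid replicate 2 or hyperthyroid replicate 1 or 4 (0.00595 to 0.00988). Scaling by the median of gene ratios changed the T3 counts from 3413 higher and 1075 lower genes to 1890 and 1735 (76% to 52.1% of calls higher), and those of hyperthyroid WT against L-NCORdeltaID from 2176 and 799 to 1107 and 1233 (73.1% to 47.3%). It gave 5 lower members with T3 instead of 3, as did a mean of at least 1 RPKM and an adjusted p under 0.05. The latter gave 5244 and 1636 genes with T3, 344 and 257 in the mutant instead of 100 and 75, and 3995 and 1412 between hyperthyroid WT and mutant. The mutant counts were 63 higher without a variance trend and 118 lower with all 12 libraries in 1 fit. With the replicate number as a block, 20 and 25 genes and 0 members were called in the mutant, and 1152 and 490 genes and 1 lower member in hyperthyroid WT against mutant. The block gave 2718 and 888 genes with T3. In these fits Slco1a4 in the mutant (adjusted p = 0.0325), Slco2b1 with T3 (0.0129), and Ttr (0.0113) and Slc7a8 against the mutant were not called, whereas Slco1a1 (0.00333) and Slco1a4 (0.0023) passed with T3. Deviations of same-numbered libraries correlated at -0.12 to 0.17, so the numbers are not taken as pairs. Leaving out 1 library gave 2438 to 2978 higher and 746 to 994 lower genes with T3, with 3 higher and 2 to 4 lower members; 36 to 110 higher and 28 to 77 lower in the mutant, with 0 to 1 member; and 1182 to 1905 and 469 to 767 in hyperthyroid WT against mutant, with 2 to 3 higher members and 2 lower. Values near 0 changed sign: Crym in the mutant was 0.01 with a pseudocount of 1 and -0.08 to 0.20 on single omissions, and Slco1a1 in hyperthyroid WT against mutant was -0.58 to 1.18. Counts of acetylated regions summed over the genes, shared ones counted for each, were 35 within 50 kb and 121 within 200 kb, and 6 start-site regions held a repeat of at least 10 of 12 letters. The order of levels was the same with the highest transcript of each gene. The cause of these changes was not tested. Crym values rested on about 36.4 to 72.8 reads, the lowest being the member value with the fewest reads, and the RPKM keep no separate counting error. The hyperthyroid libraries were the shallowest, without overlap, so depth and T3 cannot be told apart. The part of depth in these results was not tested.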
